A study of Homo sapiens with 24 samples.

Results

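The interferon response of 2 ovarian cancer cell lines was followed through 9 genes: the effectors IFIT1, IFIT2, IFIT3 and ISG15, the transcription factors IRF1, IRF7 and IRF9, and the DNA-sensing pair CGAS and STING1. They were found by symbol among the 63299 genes of the read count table, each with 1 row. Of the 9, 6 passed the filter on low counts and were tested, and IRF7, CGAS and STING1 did not pass it. The cells were A2780, a platinum-sensitive line, and its isogenic platinum-resistant counterpart A2780cis, whose medium contained 1 μM cisplatin during 1 passage in every 2 or 3. Both lines were left untreated in growth medium or exposed for 6 h or 12 h to 1 μM 5-FdU-ECyd, a prodrug that joins the nucleoside analogs 5-FdU and ECyd. Each of the 8 groups (A2780 untreated or treated, and A2780cis untreated or treated, at 6 h and at 12 h) was represented by 3 libraries, 24 in all. The groups model 1 sensitive and 1 resistant line. The replicates are called biological triplicates in the study, the labels do not say how they were cultured, and p-values cover the spread between these libraries.

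Interferons are secreted proteins that alert cells to viruses and to nucleic acid in the wrong place. DNA in the cytosol is bound by the enzyme cGAS, whose cyclic dinucleotide activates STING1, and this leads by way of TBK1 and the factors IRF3 and IRF7 to transcription of interferon genes. Secreted type I interferon binds its receptor and, through JAK kinases and a complex that holds STAT2 and IRF9, switches on interferon-stimulated genes at a DNA element named ISRE. Interferon-gamma acts at an element named GAS, and IRF1 is a classical target of that branch.

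In GRCh38 the IFIT genes are neighbours on the plus strand of chromosome 10: IFIT2 (ENSG00000119922.9) at chr10:89283694-89309271, IFIT3 (ENSG00000119917.13) at chr10:89327307-89377473 and IFIT1 (ENSG00000185745.9) at chr10:89392546-89406487. ISG15 (ENSG00000187608.8) lies at chr1:1001138-1014540, IRF1 (ENSG00000125347.13) at chr5:132440440-132508719 and IRF9 (ENSG00000213928.8) at chr14:24161234-24168043. IRF7 (ENSG00000185507.19) lies at chr11:612553-615983, CGAS (ENSG00000164430.15) at chr6:73413515-73452297 and STING1 (ENSG00000184584.12) at chr5:139475533-139482935. The authors counted reads over the exons of each gene in the GENCODE annotation of GRCh38.p7. The spans given here come from a later GENCODE annotation, as do the exon lengths, exon overlaps and GC contents used below. How far the exons differ between these annotations was not tested.

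The promoters of 5 members carry ISRE or GAS letters, and the 200 bases before each start site are shown. Whether these letters go with level or response was not tested. The sequences are RefSeq promoter windows of GRCh38.p14, listed for 5 of the 9 members, with 2 start sites for IFIT3. Capitals mark the ISRE core GAAANNGAAA, searched on both strands, or the GAS core TTCNNNGAA.
IFIT1, chr10:89392423-89392622, plus strand: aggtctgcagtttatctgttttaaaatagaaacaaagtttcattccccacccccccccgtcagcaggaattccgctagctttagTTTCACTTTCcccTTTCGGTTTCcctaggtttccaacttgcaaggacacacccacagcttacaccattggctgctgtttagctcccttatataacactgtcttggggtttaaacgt
IFIT3 first start, chr10:89327797-89327996, plus strand: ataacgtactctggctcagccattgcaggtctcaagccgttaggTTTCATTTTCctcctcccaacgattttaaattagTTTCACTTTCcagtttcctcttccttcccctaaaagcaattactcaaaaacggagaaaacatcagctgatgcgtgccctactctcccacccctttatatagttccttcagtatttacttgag
IFIT3 second start, chr10:89332329-89332528, plus strand: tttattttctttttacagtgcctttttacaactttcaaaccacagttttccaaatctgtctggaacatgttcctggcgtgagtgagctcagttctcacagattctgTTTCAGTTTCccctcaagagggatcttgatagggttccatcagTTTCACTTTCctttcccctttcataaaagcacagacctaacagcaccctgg
ISG15, chr1:1013297-1013496, plus strand: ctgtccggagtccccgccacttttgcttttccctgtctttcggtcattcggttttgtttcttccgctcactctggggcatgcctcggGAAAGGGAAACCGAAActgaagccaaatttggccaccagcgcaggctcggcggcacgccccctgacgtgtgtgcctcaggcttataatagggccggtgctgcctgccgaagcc
IRF1, chr5:132490774-132490973, minus strand: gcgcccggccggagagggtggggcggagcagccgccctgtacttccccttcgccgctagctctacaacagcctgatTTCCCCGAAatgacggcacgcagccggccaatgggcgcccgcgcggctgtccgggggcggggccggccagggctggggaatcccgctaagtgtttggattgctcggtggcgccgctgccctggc
IRF9, chr14:24161065-24161264, plus strand: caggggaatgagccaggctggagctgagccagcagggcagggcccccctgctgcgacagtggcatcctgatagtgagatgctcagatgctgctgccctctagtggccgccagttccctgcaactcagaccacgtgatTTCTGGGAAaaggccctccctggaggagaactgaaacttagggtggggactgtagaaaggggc
The 4 windows of IFIT1, IFIT3 and ISG15 each held 2 ISRE cores and no GAS core. Positions count back from the start site. In IFIT1 the cores lay at -116 to -107 and at -103 to -94, and in ISG15 at -113 to -104 and at -107 to -98, where they overlapped. In IFIT3 they lay at -156 to -147 and -122 to -113 before the first start, and at -94 to -85 and -51 to -42 before the second. IRF1 and IRF9 held 1 GAS core each, at -124 to -116 and at -63 to -55, and no ISRE core of this spelling. Among all 35116 windows of 300 bases, 3.57% held the ISRE core and 7.66% the GAS core. These matches describe letters, and binding was not measured.

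Levels are given as CPM, read counts scaled to library size after TMM normalization, in the order of replicates 1 to 3 where single libraries are listed. Changes are log2 FC ± SE from edgeR's quasi-likelihood model over all 20240 tested genes, and a gene was called when its Benjamini-Hochberg adjusted p was at most 0.05. In a bulk culture, fewer cells that express a gene and less RNA of it per cell cannot be told apart. CPM are shares of the reads counted, so rises and falls are relative to other genes and do not give amounts per cell. The paper describes ECyd as an inhibitor of RNA polymerase, and its effect on these shares was not tested.

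The first comparison asked how the untreated resistant line differs from the sensitive one. At both times IFIT3, ISG15, IRF1 and IRF9 were lower in A2780cis, while IFIT2 was higher. At 6 h 6 of 6 tested members differed, 2 higher and 4 lower, where 47.9% of all tested genes differed, 25% higher and 22.9% lower. At 12 h 5 of 6 differed, 1 higher and 4 lower, where 52.9% of all tested genes differed, 25.4% higher and 27.5% lower. The median log2 FC of the 6 members was -1.77 at 6 h and -1.46 at 12 h, beside 0.01 and -0.01 over all tested genes. The members, and the gene lists below, were chosen with earlier results of these data known. Their shares and medians beside those of all genes are therefore descriptions and no test. With offsets for GC content and length, chosen after seeing the data, 7475 of 11750 called genes were higher at 6 h and 7929 of 12646 at 12 h.

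IFIT3, a tetratricopeptide protein that works in complexes with IFIT1 and IFIT2, showed the widest gap. At 12 h its level was 53.1, 53.8 and 52.8 CPM in untreated A2780 and 6.89, 6.68 and 6.26 CPM in untreated A2780cis. No library of A2780cis came near those of A2780, and the level was 8.04-fold lower (log2 FC = -3.01 ± 0.10, adjusted p = 3.93e-19). At 6 h, 75.4, 75.03 and 70.6 CPM stood against 10.9, 10.8 and 10.9 CPM (log2 FC = -2.76 ± 0.10, adjusted p = 3.04e-18).

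IFIT1 and IFIT2, RNA-binding antiviral proteins, went the other way at 6 h. IFIT2 measured 34.2, 30.8 and 26.3 CPM in A2780 and 96.7, 86.1 and 111 CPM in A2780cis, 3.21-fold higher (log2 FC = 1.68 ± 0.12, adjusted p = 1.01e-11). At 12 h the values were 32.5, 30.5 and 27.5 CPM and 61.5, 52.4 and 50.5 CPM (log2 FC = 0.86 ± 0.12, adjusted p = 1.14e-06). The groups did not overlap at either time.
IFIT1 measured 252, 274 and 222 CPM in A2780 and 360.4, 354 and 441 CPM in A2780cis at 6 h (log2 FC = 0.63 ± 0.12, adjusted p = 9.68e-05). At 12 h the lines overlapped, with 215, 221 and 188 CPM and 259, 223 and 205 CPM, and the difference did not pass the test (log2 FC = 0.14 ± 0.12, adjusted p = 0.344, 95% interval -0.11 to 0.39). With these offsets the difference at 12 h passed (log2 FC = 0.42, adjusted p = 6.26e-04). At 6 h the 3 IFIT neighbours thus differed between the lines in opposite directions.

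ISG15, a ubiquitin-like protein that is attached to other proteins, varied more between replicates. At 6 h it measured 5.10, 7.95 and 11.5 CPM in untreated A2780 and 3.33, 1.70 and 3.93 CPM in untreated A2780cis, from 71, 84 and 127 reads and 36, 17 and 48 reads. The groups did not overlap (log2 FC = -1.41 ± 0.36, adjusted p = 0.00187). At 12 h, 21.5, 21.1 and 17.9 CPM stood against 9.82, 10.7 and 13.8 CPM, again without overlap (log2 FC = -0.81 ± 0.26, adjusted p = 0.0111, 95% interval -1.35 to -0.27).

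The transcription factors IRF1 and IRF9 were both several-fold lower in the resistant line. IRF1, first found as a regulator of the interferon-beta gene, measured 53.7, 57.04 and 65.9 CPM in A2780 and 11.8, 14.4 and 15.1 CPM in A2780cis at 12 h (log2 FC = -2.10 ± 0.11, adjusted p = 3.51e-15). At 6 h it measured 55.1, 58.00 and 60.2 CPM and 13.96, 13.6 and 11.9 CPM (log2 FC = -2.14 ± 0.11, adjusted p = 8.06e-15). IRF9, the DNA-binding partner of STAT2, was at 55.4, 54.03 and 54.98 CPM and 11.5, 12.1 and 10.5 CPM at 12 h (log2 FC = -2.27 ± 0.10, adjusted p = 2.73e-16). For both genes the libraries of each line lay close together and far from those of the other line. At 6 h IRF9 was at 55.3, 48.9 and 53.7 CPM and 8.41, 7.92 and 10.1 CPM (log2 FC = -2.57 ± 0.11, adjusted p = 1.15e-16). In the later annotation 22.9% of the exon bases of IRF1 lie opposite IRF1-AS1, and 23.9% of those of IRF9 lie in another gene on the same strand. Of the exon bases of IFIT2, 12.1% lie in a long noncoding RNA gene on the same strand. The strand setting of the counting is not given in the sources used here, so how many reads come from those neighbours is unknown.

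**Figure D1:**
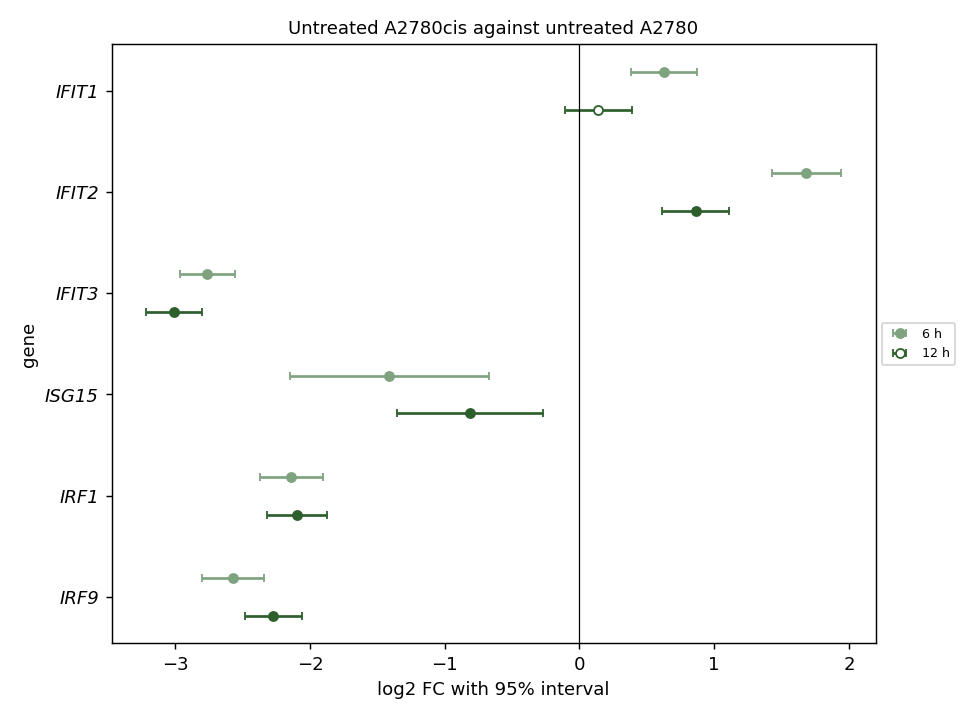
Difference between untreated A2780cis and untreated A2780 for the 6 tested members at 6 h and 12 h. The axis gives log2 FC with its 95% interval, filled points passed the test, and the open point is IFIT1 at 12 h. IFIT3, ISG15, IRF1 and IRF9 lie on the lower side of 0 at both times, between -0.81 and -3.01, and IFIT2 lies on the higher side.

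The remaining 3 members were near the detection limit in every group. IRF7, the master factor of interferon-alpha transcription, had between 0 and 10 reads per library and 61 over the 24 libraries. CGAS, the DNA sensor, had between 0 and 9 reads and 77 in all. STING1, the adaptor of that pathway, had no read in 18 of 24 libraries and at most 5 in any. At totals of 11077368 to 21901406 reads per library, a floor of 3 reads corresponds to between 0.137 and 0.271 CPM. A small difference between the lines could therefore be missed at this depth. In the fit without the filter, which took in all 3 genes, none was called between the untreated lines (adjusted p = 0.206 to 1). These limits cover counting error alone.

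In A2780 at 12 h CGAS had 4, 9 and 8 reads after treatment and 1, 1 and 1 without it. STING1 had its highest counts in the same treated libraries, 1, 5 and 4 reads, and 2, 1 and 0 reads in their controls. IRF7 had 4, 4 and 6 reads there and 3, 3 and 3 in the controls. Scaled to CPM, the treated libraries lay above the controls for CGAS and overlapped them for IRF7 and STING1. In A2780cis at 12 h CGAS had 7, 1 and 4 reads after treatment and 0, 3 and 1 without, which overlap, and STING1 had no read in these 6 libraries. The model used did not test these genes, because of its filter on low counts. Without the filter CGAS was called higher in treated A2780 at 12 h (adjusted p = 0.00268), as it was with the DESeq2 Wald test (adjusted p = 0.0352), and IRF7 was called higher at 12 h than at 6 h in untreated A2780cis (adjusted p = 0.0312), from 3, 3 and 10 reads beside 1, 0 and 0. Those were the calls among 30 results for these genes without the filter. No fold change is given for counts this low.

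**Figure D2:**
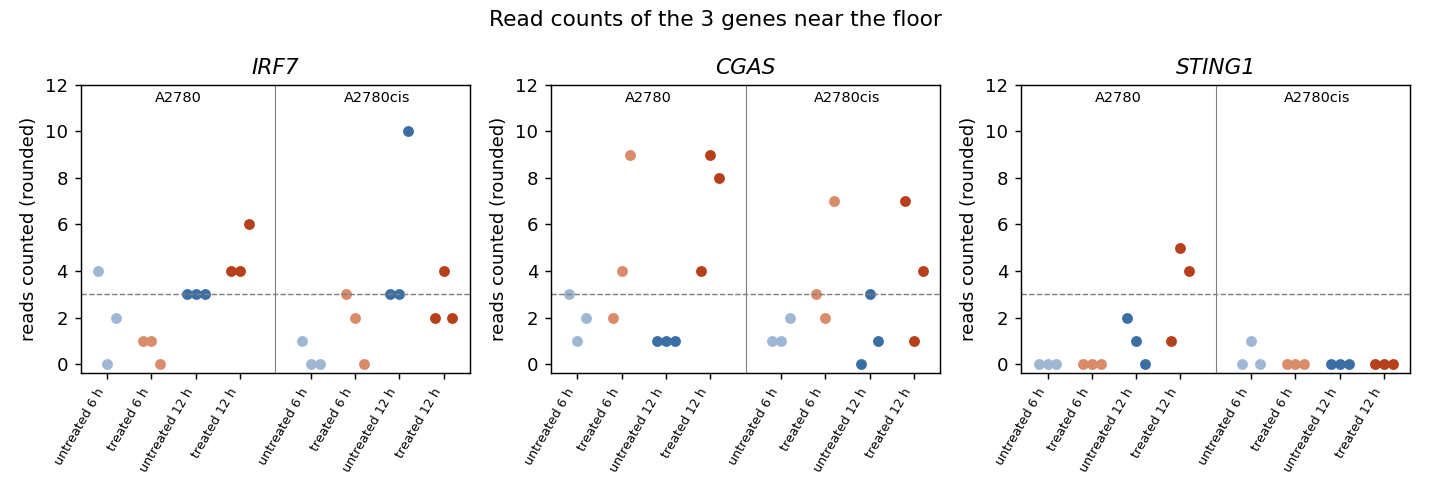
Reads counted for IRF7, CGAS and STING1 in each of the 24 libraries. Points are libraries, and the dashed line marks 3 reads. No library exceeds 10 reads for any of the 3 genes.

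In the wider pathway, lists of 146 further genes were examined, of which 112 had enough reads to be tested. At 6 h, 23 were higher in untreated A2780cis and 69 lower, with a median log2 FC of -1.52. At 12 h, 19 were higher and 68 lower, with a median of -1.17. Over all tested genes 25% were higher and 22.9% lower at 6 h, and 25.4% and 27.5% at 12 h, with medians of 0.01 and -0.01.

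In the interferon-gamma and antigen presentation list 22 of 28 tested genes were lower at 12 h and 2 higher, with a median log2 FC of -3.05. Over all tested genes 27.5% were lower and 25.4% higher. The guanylate-binding proteins GBP4 and GBP5 measured 22.5 ± 1.22 and 10.9 ± 0.355 CPM (SD, n = 3) in untreated A2780 at 12 h and had no read in the 3 untreated A2780cis libraries. Against a floor of 3 reads in each library, GBP4 was at least 142-fold and GBP5 at least 68.6-fold lower. IDO1, a tryptophan-degrading enzyme, was at least 57.2-fold lower. The invariant chain CD74 and the lysosomal thiol reductase IFI30, both of the class II pathway, were the 2 higher genes (log2 FC = 0.84 ± 0.19 and 0.77 ± 0.12, adjusted p = 5.67e-04 and 2.58e-06).

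Of 47 tested genes in the list of other type I interferon-stimulated genes, 32 were lower and 8 higher in A2780cis at 6 h, and 32 lower and 7 higher at 12 h. The shares over all tested genes were 22.9% lower and 25% higher at 6 h, and 27.5% and 25.4% at 12 h. BST2, which tethers budding virus, was at 191 ± 4.14 CPM (SD, n = 3) in untreated A2780 at 12 h and at 3, 0 and 0 reads in A2780cis. IFI27 was at 31.1 ± 2.07 and 0.299 ± 0.0890 CPM. The ISG15 ligase HERC5 had the opposite order, with 2.46 ± 0.425 CPM in A2780 and 10.9 ± 0.958 CPM in A2780cis (log2 FC = 2.15 ± 0.18, adjusted p = 1.29e-10).

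Of the 15 receptor, JAK and STAT genes, 5 were higher and 5 lower at 6 h, and 4 higher and 5 lower at 12 h, which is near the shares over all tested genes. JAK1, the kinase shared by the type I and type II receptors, measured 13.2, 12.6 and 12.4 CPM in untreated A2780 and 467, 478 and 446 CPM in untreated A2780cis at 12 h. It was 36.5-fold higher (log2 FC = 5.19 ± 0.11, adjusted p = 1.66e-22). SOCS3, the feedback inhibitor of JAK signaling, was at 38.2 ± 4.87 and 0.421 ± 0.106 CPM (SD, n = 3).

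Of 18 tested genes for nucleic acid sensors and relays, 5 were higher and 6 lower at 6 h, and 5 higher and 6 lower at 12 h, again near the shares over all tested genes. The RNA sensors RIGI and TLR3 were lower in A2780cis at 12 h (log2 FC = -2.42 ± 0.13 and -3.03 ± 0.18, adjusted p = 6.41e-15 and 1.21e-13). IFI16, a nuclear DNA sensor, had no read in untreated A2780cis at 12 h and was at least 23.8-fold lower. Of the other IRF genes, IRF3 was higher (log2 FC = 0.54 ± 0.13, adjusted p = 9.63e-04) and IRF2 lower (log2 FC = -0.59 ± 0.11, adjusted p = 4.20e-05).

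Interferon transcripts themselves were scarce. Of 21 interferon genes, 14 had no read in any library and 19 had at most 3 reads in every library. The other two were IFNG and IFNK, and IFNK had 5 reads in 1 treated A2780 library at 12 h. IFNG, the interferon-gamma gene, had 43, 48 and 54 reads in untreated A2780 at 12 h and 122, 143 and 136 reads after treatment, a rise in all 3 treated libraries (log2 FC = 1.39 ± 0.19, adjusted p = 3.87e-06). In A2780cis at 12 h it had 1, 0 and 0 reads untreated and 0, 0 and 0 treated.

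**Figure D3:**
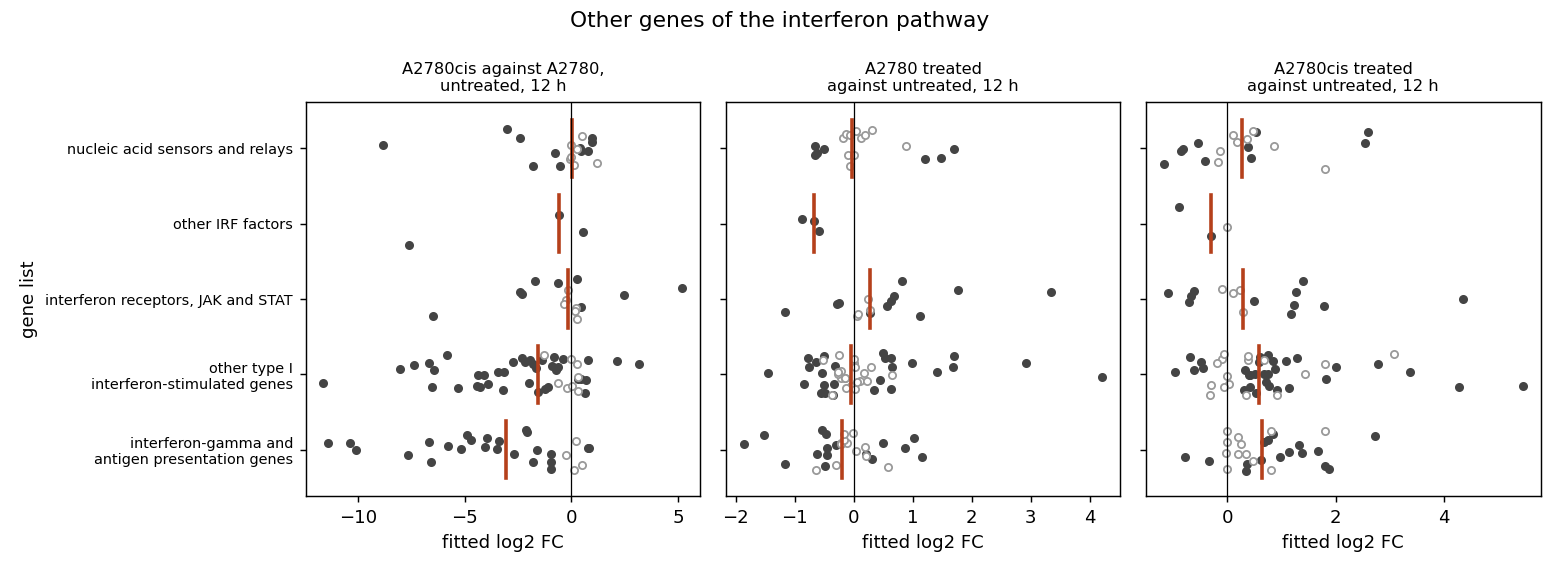
Fitted log2 FC of the tested genes in the pathway lists at 12 h, for the untreated lines and for treatment of each line. Each point is a gene, filled where it passed the test, and the red line is the median of the list. The median of the interferon-gamma and antigen presentation list lies at -3.05 for the lines, at -0.19 for treated A2780 and at 0.65 for treated A2780cis. Fitted values of genes without reads in a group are no bounds.

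The second comparison asked how the members responded to 5-FdU-ECyd in each line. IFIT1 and IFIT3 fell in the 4 comparisons, IFIT2 fell at 6 h, ISG15 and IRF1 each rose in 3 of 4, and IRF9 rose in 1. In A2780, 4 of 6 tested members changed at 6 h (1 higher, 3 lower), where 29.4% of all tested genes changed (16% higher, 13.4% lower). At 12 h 3 of 6 changed (1 higher, 2 lower), where 54.8% did (28.6% and 26.1%). In A2780cis, 6 of 6 changed at 6 h (3 higher, 3 lower), where 30.7% did (14.4% and 16.3%), and 4 of 6 at 12 h (2 higher, 2 lower), where 59.9% did (31% and 28.9%). The members' shares at 12 h were near those of all genes. With library size alone in place of TMM, 5 members changed in A2780 at 12 h, 3 of them upward, among them IFIT2 and ISG15. The treatment and line comparisons share the untreated libraries.

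**Figure D4:**
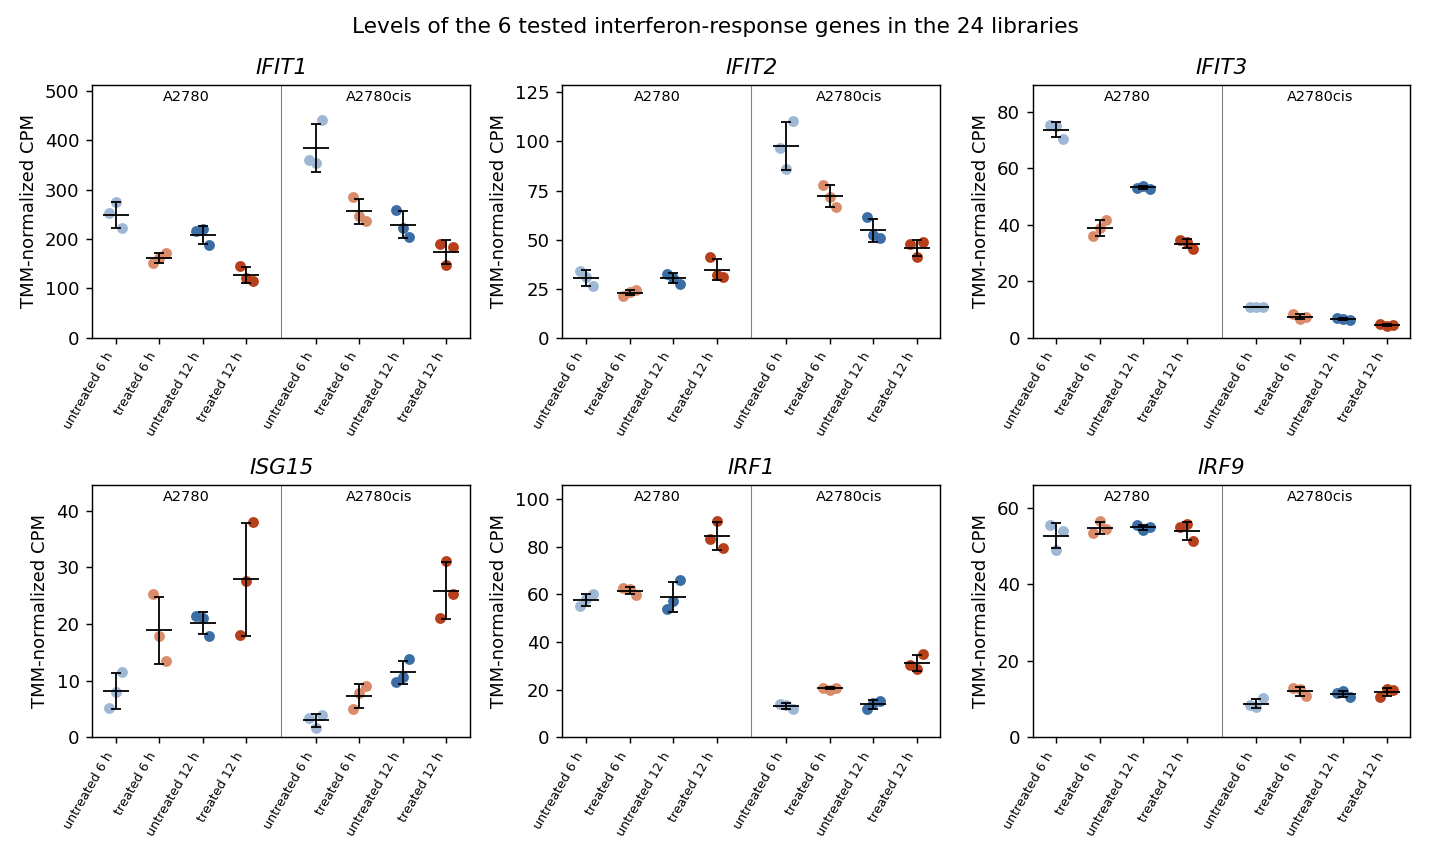
TMM-normalized CPM of the 6 tested members in all 24 libraries. Points are libraries, and black lines give the mean ± SD of 3 libraries. Each IFIT3, IRF1 and IRF9 library of A2780cis lies below every A2780 library, and IFIT1 is lower after treatment in each line at each time.

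IFIT1 fell in each of the 4 comparisons. In A2780 it measured 152, 162 and 171 CPM after 6 h treatment (log2 FC = -0.63 ± 0.12, adjusted p = 3.66e-04) and 144, 122 and 115 CPM after 12 h (log2 FC = -0.71 ± 0.12, adjusted p = 2.03e-05). In A2780cis it measured 285, 247 and 237 CPM at 6 h (log2 FC = -0.59 ± 0.12, adjusted p = 5.52e-04) and 189.8, 147 and 185 CPM at 12 h (log2 FC = -0.40 ± 0.12, adjusted p = 0.00590). Treated and untreated libraries did not overlap in any of the 4 pairs of groups.

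IFIT3 also fell in each comparison, without overlap. In A2780 it measured 35.9, 38.7 and 41.6 CPM after 6 h (log2 FC = -0.93 ± 0.09, adjusted p = 2.74e-08) and 34.6, 33.8 and 31.5 CPM after 12 h (log2 FC = -0.68 ± 0.09, adjusted p = 4.76e-07). In A2780cis it measured 8.29, 6.57 and 7.40 CPM (log2 FC = -0.55 ± 0.11, adjusted p = 3.74e-04) and 4.83, 4.08 and 4.36 CPM (log2 FC = -0.58 ± 0.11, adjusted p = 9.50e-05). The difference between the responses of the lines did not pass the test at 6 h (interaction log2 FC = 0.37 ± 0.14, adjusted p = 0.164, 95% interval 0.08 to 0.67) or at 12 h (interaction log2 FC = 0.10 ± 0.15, adjusted p = 0.685, 95% interval -0.20 to 0.40). With the GC and length offsets it passed at 6 h (log2 FC = 0.40, adjusted p = 0.0194).

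IFIT2 fell at 6 h in both lines, to 21.4, 23.05 and 24.1 CPM in A2780 (log2 FC = -0.42 ± 0.13, adjusted p = 0.0172) and to 77.8, 71.5 and 66.7 CPM in A2780cis (log2 FC = -0.44 ± 0.12, adjusted p = 0.00585). Without replicate 1 of the untreated or of the treated A2780 libraries, the A2780 value did not pass (log2 FC = -0.32 and -0.37, adjusted p = 0.120 and 0.0797). At 12 h treated A2780 measured 40.9, 32.01 and 30.99 CPM, which overlapped its controls (log2 FC = 0.20 ± 0.12, adjusted p = 0.181). Treated A2780cis measured 47.6, 41.2 and 48.6 CPM, below each control, but the difference did not pass (log2 FC = -0.26 ± 0.12, adjusted p = 0.0643). It passed without the filter on low counts (-0.31, adjusted p = 0.0287) and with the GC and length offsets (-0.22, adjusted p = 0.0397). It also passed with the replicate number as a block (-0.26, adjusted p = 0.0447), and without replicate 3 of the untreated or of the treated libraries (-0.32 and -0.33, adjusted p = 0.0434 and 0.0398). The difference between these responses did not pass either (interaction log2 FC = -0.46 ± 0.17, adjusted p = 0.0547, 95% interval -0.81 to -0.10). With the DESeq2 Wald test it passed (-0.47, adjusted p = 0.0351), as it did with library size alone (-0.57, adjusted p = 0.00634). It also passed without the filter (-0.48, adjusted p = 0.0405), with the offsets (-0.36, adjusted p = 0.0401) and with the replicate block (-0.45, adjusted p = 0.0364). In 12 of 20 alternatives this interaction stayed on the same side of the threshold.

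ISG15 rose after 6 h in both lines. It measured 25.2, 17.95 and 13.5 CPM in treated A2780 (log2 FC = 1.22 ± 0.29, adjusted p = 0.00249) and 5.02, 7.89 and 9.05 CPM in treated A2780cis (log2 FC = 1.29 ± 0.35, adjusted p = 0.00682), and each treated library lay above each control of its line. Without replicate 2 of the untreated A2780cis libraries, which had 17 reads, the A2780cis value was 1.03 (adjusted p = 0.0528). After 12 h treated A2780cis measured 21.1, 31.2 and 25.4 CPM (log2 FC = 1.18 ± 0.26, adjusted p = 3.84e-04). Treated A2780 measured 18.1, 27.7 and 37.99 CPM, of which the lowest lay within the control range, and the difference did not pass (log2 FC = 0.48 ± 0.25, adjusted p = 0.109). Without replicate 1 of the treated libraries it passed (0.69, adjusted p = 0.0238).

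IRF1 was the member whose difference in response between the lines passed the test in the model used. In A2780 the level was 62.7, 62.3 and 59.8 CPM after 6 h, which overlapped the controls (log2 FC = 0.09 ± 0.10, adjusted p = 0.527), and 83.1, 90.7 and 79.5 CPM after 12 h (log2 FC = 0.52 ± 0.10, adjusted p = 8.86e-05). In A2780cis it rose to 20.7, 20.01 and 20.8 CPM at 6 h (log2 FC = 0.64 ± 0.11, adjusted p = 1.26e-04) and to 30.2, 28.6 and 34.8 CPM at 12 h (log2 FC = 1.18 ± 0.11, adjusted p = 7.92e-10). Each treated A2780cis library stayed below each untreated A2780 library.
The interaction of line and treatment for IRF1 was 0.66 ± 0.15 on the log2 scale at 12 h (adjusted p = 0.00195) and 0.55 ± 0.15 at 6 h (adjusted p = 0.0467). At 6 h it did not pass when any 1 of the 12 libraries was left out (0.48 to 0.60, adjusted p = 0.0519 to 0.119). IRF1 was the 1 of 6 members called at each time, where 3.07% of all tested genes were called at 6 h (0.692% higher, 2.38% lower) and 23.7% at 12 h (9.7% and 14%).

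IRF9 rose in A2780cis at 6 h, to 12.8, 12.5 and 10.7 CPM (log2 FC = 0.43 ± 0.12, adjusted p = 0.00645). With the GC and length offsets this value was 0.28 (adjusted p = 0.0788). In A2780 it measured 53.4, 56.5 and 54.4 CPM at 6 h and 54.9, 55.6 and 51.3 CPM at 12 h, with log2 FC of 0.05 (95% interval -0.14 to 0.25) and -0.02 (-0.22 to 0.17). With the offsets the value at 12 h was -0.23 and passed (adjusted p = 0.0297). In A2780cis at 12 h it was 10.6, 12.5 and 12.5 CPM, with a log2 FC of 0.06 (-0.16 to 0.29).

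**Figure D5:**
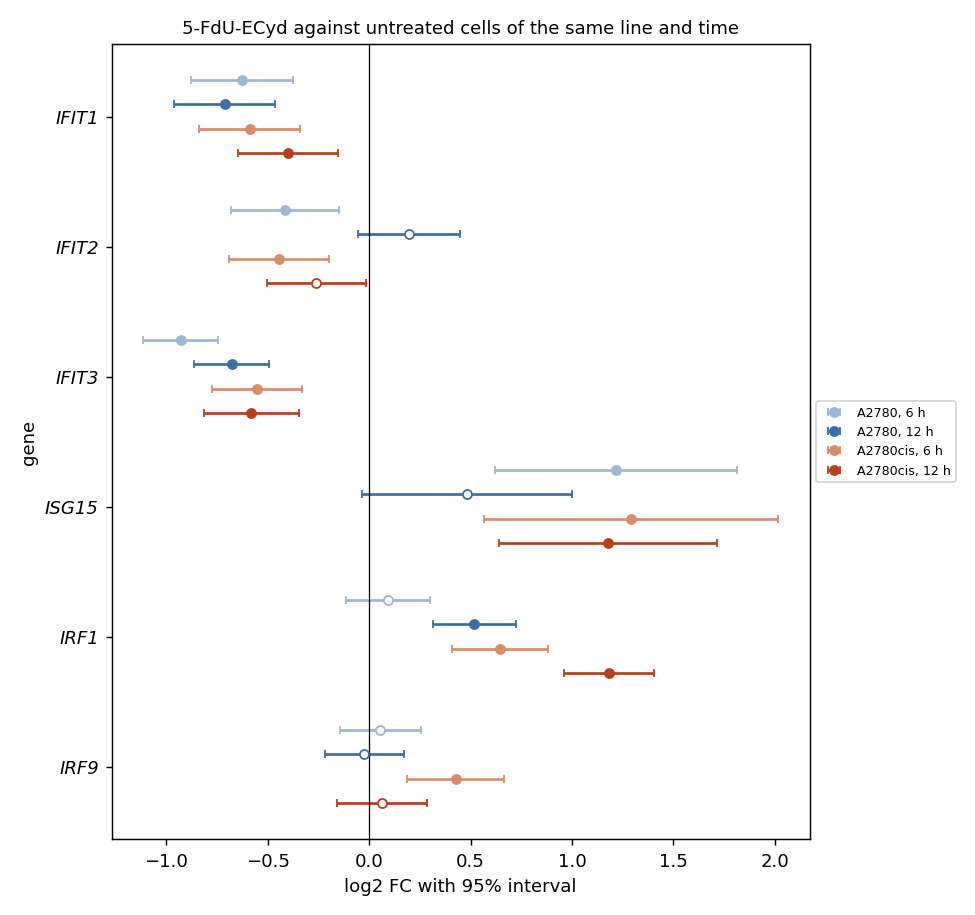
Response of the 6 tested members to 5-FdU-ECyd relative to the untreated libraries of each line at each time. The axis gives log2 FC with its 95% interval, and filled points passed the test. IFIT1 and IFIT3 lie below 0 in the 4 comparisons, and the IRF1 values of A2780cis (0.64 and 1.18) are higher than those of A2780 (0.09 and 0.52).

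Untreated cells differed between the 6 h and 12 h libraries too. Depth differed with time as well. The median library total was 11704301 at 6 h and 17423522 at 12 h in untreated A2780, and 12092593 and 18277766 in untreated A2780cis. The part of depth in these differences was not tested. In A2780 2 of 6 members differed between 12 h and 6 h (1 higher, 1 lower), where 26.9% of all tested genes did (16.6% and 10.3%), and in A2780cis 5 of 6 (2 higher, 3 lower), where 39.9% did (18% and 21.9%). ISG15 was higher at 12 h by 1.31 ± 0.28 on the log2 scale in A2780 and by 1.91 ± 0.34 in A2780cis (adjusted p = 0.00251 and 1.56e-04). IFIT3 was lower, at -0.47 ± 0.09 and -0.72 ± 0.11 (adjusted p = 0.00115 and 4.75e-05). In A2780cis IFIT1, IFIT2 and IRF9 differed as well (log2 FC = -0.75, -0.84 and 0.36), but IRF9 did not pass with the GC and length offsets (0.17, adjusted p = 0.390). IRF1 did not pass in either line (0.03 and 0.07).
Base composition moved with these comparisons. In untreated cells, genes richest in GC (from 57.6%) had a median log2 FC between 12 h and 6 h of 0.58 in A2780 and 0.76 in A2780cis, and genes poorest in GC (up to 40.7%) had -0.28 and -0.36. These are the outer quintiles by GC. After 6 h treatment the medians were 0.44 and -0.21 in A2780 and 0.37 and -0.14 in A2780cis. The longest transcript of ISG15 holds 63.4% GC and those of the 3 IFIT genes between 42.2% and 43.1%. With GC content and length as offsets, ISG15 at 12 h against 6 h was 0.76 in A2780 and 1.08 in A2780cis, and its response at 6 h was 0.77 and 0.89, each still past the test. IFIT1 and IFIT3 stayed past the test in the 4 treatment comparisons with these offsets.

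In the pathway lists, calls after treatment ran in both directions in A2780 and mainly upward in A2780cis. In A2780, 24 of 112 genes rose and 22 fell at 6 h, and 31 rose and 33 fell at 12 h, with median log2 FC of 0.02 and -0.03. Over all tested genes 16% rose and 13.4% fell at 6 h and 28.6% and 26.1% at 12 h, so the counts at 12 h were near the background. In A2780cis 36 rose and 8 fell at 6 h, and 52 rose and 18 fell at 12 h, with medians of 0.24 and 0.43, where 14.4% of all tested genes rose and 16.3% fell at 6 h and 31% and 28.9% at 12 h. The medians of all tested genes were 0.04, 0.02, 0.00 and 0.04 in the same order. With library size alone, 34 of 52 called pathway genes rose in A2780 at 6 h and 46 of 65 at 12 h. By the interaction test the log2 FC on treatment was higher in A2780cis than in A2780 for 10 genes and lower for 2 at 6 h. At 12 h it was higher for 39 and lower for 10. A higher value can be a larger rise or a smaller fall. Over all tested genes the shares were 0.692% and 2.38% at 6 h and 9.7% and 14% at 12 h.

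STAT2, the partner of IRF9, rose after treatment in both lines. In A2780 at 12 h it rose from 59.2 ± 1.77 to 105 ± 4.38 CPM (SD, n = 3, log2 FC = 0.82, adjusted p = 2.09e-08). In A2780cis it rose from 18.0 ± 0.660 to 47.6 ± 4.10 CPM (log2 FC = 1.40, adjusted p = 3.09e-12). JAK1 fell in A2780cis from 464 ± 16.2 to 216 ± 20.6 CPM (log2 FC = -1.10 ± 0.09, adjusted p = 2.13e-10), and its response differed between the lines (interaction log2 FC = -1.38 ± 0.14, adjusted p = 2.10e-07).

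TAP1, the peptide transporter of antigen presentation, measured 7.85, 8.76 and 8.20 CPM in untreated A2780cis at 12 h and 50.6, 53.0 and 59.9 CPM after treatment (log2 FC = 2.72 ± 0.11, adjusted p = 2.25e-16). In A2780 it was at 209, 206 and 236 CPM and at 266, 273 and 267 CPM. The interaction passed the test (log2 FC = 2.41 ± 0.14, adjusted p = 5.12e-12), and the treated A2780cis libraries remained below those of untreated A2780. TLR3, a sensor of double-stranded RNA, rose at 12 h with 19.5 ± 2.60 CPM untreated and 63.3 ± 3.55 CPM treated in A2780, beside 2.36 ± 0.483 and 14.4 ± 3.04 CPM in A2780cis (log2 FC = 1.70 and 2.60, adjusted p = 4.45e-10 and 1.03e-11). The DNA exonuclease TREX1 rose by 1.48 and 2.54 on the log2 scale (adjusted p = 2.29e-05 and 2.02e-10). In A2780 GBP4 and GBP5 fell at 12 h (log2 FC = -1.52 and -1.87, adjusted p = 1.15e-08 and 1.66e-08), as did the RNA helicase DDX60 (log2 FC = -1.46 ± 0.15, adjusted p = 1.11e-08).

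Between genes, levels can be compared only per length of exon. The lengths are those of the later annotation, while the reads were counted with the earlier one. In CPM per kilobase of merged exons, untreated A2780 at 12 h ranked IFIT1 (45.1), ISG15 (23.2), IFIT3 (10.5), IRF9 (8.47), IFIT2 (6.98) and IRF1 (4.80). Untreated A2780cis ranked IFIT1 (49.6), ISG15 (13.2), IFIT2 (12.7), IRF9 (1.75), IFIT3 (1.30) and IRF1 (1.124). In A2780cis ISG15 and IFIT2 lay within their spread of each other (SD 2.42 and 1.35). The order depends on the length used: by the canonical transcript, IRF9 in A2780 was at 33.7 and ISG15 at 31.6 per kilobase. IFIT1 was first by each of the 3 lengths tried.

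Over the 8 groups IFIT3 had the widest range of mean log2 CPM among the members, 4.02, from untreated A2780 at 6 h down to treated A2780cis at 12 h. ISG15 came next with 3.18, from treated A2780 at 12 h down to untreated A2780cis at 6 h. Of 14262 genes searched, those nearest in pattern to IFIT3 were SCN3A, PLEKHA5 and ATP11B, with root mean square differences of 0.16, 0.20 and 0.24 in log2 CPM over 8 group means. Those nearest to ISG15 were ULK1, PARP10 and HELZ2, at 0.16, 0.20 and 0.30. These likenesses carry no test.

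Markers of other cell types were checked in all libraries. The summed level of 8 leukocyte markers was between 0.0718 and 2.05 CPM in A2780 and at most 0.245 CPM in A2780cis, and PTPRC had at most 1 read. The highest sums, 1.26 to 2.05 CPM, were those of treated A2780 at 12 h, beside 0.174 to 0.462 CPM in its controls, and ITGAM had 21, 39 and 22 reads there and 1, 0 and 1 in the controls. These values moved with the treatment comparison of A2780 at 12 h, and their part in it was not tested. The 4 endothelial markers summed to at most 0.100 CPM, and CDH5 had no read. The 5 fibroblast markers summed to 49.9 to 86.0 CPM in A2780 and 1.76 to 4.49 CPM in A2780cis. The 8 epithelial and Müllerian markers summed to 2.09 to 6.52 CPM in A2780 and 24.97 to 35.8 CPM in A2780cis, carried mainly by the keratins KRT18 and KRT8, with EPCAM at no more than 28 reads and KRT19 at no more than 6 in any library. KRT7 had no read, and PAX8, CDH1 and MUC16 had at most 2. The fibroblast and epithelial sums differ between the lines beside the interferon genes, and their part in the results was not tested.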

How the data were processed

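RNA was prepared with the TruSeq Stranded Total RNA kit and sequenced on a NextSeq500, in 24 libraries of 8 groups of 3. The deposited table holds expected counts (estimated counts that need not be whole) per Ensembl gene, which the authors made with Trimmomatic, STAR 2.5.2b and featureCounts on GRCh38.p7. Multimapping reads were counted as fractions and reads over several genes for each gene. Between 9.50% and 12.8% of entries per library were not whole, and these expected counts were rounded. Library totals ran from 11077368 to 21901406. Groups came from the labels.

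Genes passing edgeR's filterByExpr (minimum count 10, minimum total 15) were fitted in 1 quasi-likelihood model of the 8 groups with TMM normalization (edgeR 4.0.16, R 4.3.3, 16 residual degrees of freedom). The contrasts were line, treatment, their interaction, and time in untreated cells, with Benjamini-Hochberg adjustment over all tested genes and a threshold of 0.05. Bounds used a floor of 3 counts in each library. The script was tested on simulated data. Alternatives were other normalizations, no filter, unrounded counts, a replicate block, compared groups alone, DESeq2 1.42.0, each library left out, other gene lengths, and, chosen after seeing the data, offsets for GC content and length and the canonical transcript length.

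The members and the gene lists were chosen with earlier results of these data known. The text describes the 9 members. From each list and comparison it drew on the up to 3 called genes with the largest fitted change in each direction whose log2 CPM averaged 0 or more, and on interferon genes with over 3 counts in a library. For the 2 members with the widest range it named the 3 genes with the nearest group means, searching genes whose log2 CPM averaged 1 or more. Same-numbered replicates were checked for pairing by the correlation of their deviations from the group means, which ran from -0.25 to 0.31. Values of 1 pathway gene are not reported here.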

Additional observations from a re-analysis of the deposited data

Results flagged for a closer look

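The genes given here, up to 3 per pathway list and direction, had a response to 5-FdU-ECyd that differed between the lines by the interaction test of edgeR's quasi-likelihood model, with values as the log2 FC in A2780cis minus that in A2780. IRF1 was the member among them, at 0.55 at 6 h and 0.66 at 12 h.

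At 6 h the other genes so named with a higher response in A2780cis were RIGI (0.73), STAT2 (0.63), IFI27 (2.40), PARP14 (0.59), PARP9 (0.47), CD274 (2.30), GBP1 (1.53) and BATF2 (1.37). The largest values, of IFI27 and CD274, had wide 95% intervals (1.26 to 3.55 and 1.25 to 3.34). CD274 had a mean log2 CPM of 0.67. Those with a lower one were JAK1 (-0.92) and CIITA (-0.71).

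At 12 h those with a higher response in A2780cis were TREX1 (1.06), TLR3 (0.89), RIGI (0.62), SOCS3 (1.22), USP18 (1.09), STAT2 (0.58), IFI27 (3.77), OAS2 (2.51), ISG20 (1.67), TAP1 (2.41), PSMB9 (1.43) and GBP1 (1.35). Those with a lower one were TRAF3 (-0.52), TBK1 (-0.47), SAMHD1 (-0.36), JAK1 (-1.38), JAK2 (-0.91), IFNAR1 (-0.46), HERC5 (-1.26), TRIM5 (-0.65), NT5C3A (-0.54) and CIITA (-0.49). The values of IFI27, the largest, and of SOCS3 rest on low levels in untreated A2780cis at 12 h, given above. Those levels lie not far above the floor of 3 reads, which was 0.158 CPM in that group.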

How the results depend on the processing

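Of 60 member results, 33 kept their direction and their side of the threshold under every alternative run, as did 160 of 229 named pathway results. Members called after treatment of A2780 at 12 h rose from 3 to 5 with library size alone and with no filter, there through ISG15 and CGAS. Members called in the interaction at 6 h went from 1 to 0 with no filter and to 2 with GC and length offsets. In the interaction at 12 h they went from 1 to 2 with library size alone and with DESeq2, to 3 with no filter and to 4 with the offsets, through IFIT1, IFIT2 or ISG15. With the offsets the interaction at 6 h called 1522 genes (622 without) and 22 pathway genes (12), untreated 12 h against 6 h called 2402 genes (5435) and 14 pathway genes (35) in A2780, and 3158 (8083) and 21 (46) in A2780cis. The cause was not tested. Splits moved too: with library size alone 8084 of 11433 genes called in A2780 at 12 h rose (5796 of 11087 in the model used), with 46 of 65 pathway genes (31 of 64), in A2780cis at 6 h 3782 of 6155 rose (2917 of 6212), and between times in A2780cis 4686 of 6284 were higher (3650 of 8083). With the offsets 7475 of 11750 genes called between the lines at 6 h were higher (5057 of 9695) and 7929 of 12646 at 12 h (5133 of 10698). With library size alone IRF9 in A2780 at 12 h was 0.20, and the interaction was 0.0042 for IFIT2 at 6 h and -0.019 for IFIT3 and -0.024 for IRF9 at 12 h. IFIT2 between times in A2780 was 0.054 with library size alone, 0.014 with no filter and 0.11 with the offsets, and its interaction at 6 h was 0.033 with the compared groups alone. IRF1 between times in A2780 was -0.0068 with DESeq2 size factors, -0.00047 with DESeq2 and -0.16 with the offsets. The offsets also gave -0.10 for IRF1 and -0.19 for IRF9 in A2780 at 6 h, -0.038 for IRF9 in A2780cis at 12 h, and between times -0.19 for IRF9 and -0.061 for SOCS3 in A2780 (0.44 and called without them) and -0.051 for IRF1 in A2780cis. Without 1 library, A2780 at 6 h gave 3805 to 5987 genes and 26 to 45 pathway genes (lowest without untreated replicate 1, and 3963 and 28 without treated replicate 1). The interaction at 6 h gave 357 to 642 genes and 0 members, and at 12 h 1 to 2 members. Between times A2780 gave 1846 to 5697 genes and 18 to 40 pathway genes (lowest without 6 h replicate 1, and 2324 and 19 without 12 h replicate 3), and A2780cis 4985 to 8421 and 28 to 47 (lowest without 12 h replicate 3). Signs turned without 1 library for IFIT1 in the interaction at 6 h (-0.046 to 0.15), IFIT2 in the interaction at 6 h (-0.12 to 0.070), ISG15 in the interaction at 6 h (-0.26 to 0.34), IFIT2 between times in A2780 (-0.11 to 0.078), IRF1 between times in A2780 (-0.060 to 0.083), IRF1 between times in A2780cis (-0.0036 to 0.17), IRF9 in A2780 at 12 h (-0.051 to 0.0064) and IRF9 in A2780cis at 12 h (-4.6e-05 to 0.11). With the replicate number as a block, members called rose from 4 to 5 in A2780cis at 12 h and from 1 to 2 in the interaction at 12 h, both through IFIT2 (-0.26, adjusted p = 0.0447, and -0.45, adjusted p = 0.0364), and no other member count changed. The numbers were not taken as a pairing, since no comparison had all correlations above 0.1, and 0 to 4 of 6 libraries correlated best with their own number. Depth limits IRF7, CGAS and STING1: of 30 results for them the fit without a filter called 2, CGAS in treated A2780 at 12 h and IRF7 between times in A2780cis, and DESeq2, which gave an adjusted p for 8, called the first.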
